A study of Mus musculus with 12 samples.

Results

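The secreted Wnt inhibitors are proteins that cells release to hold Wnt signals in check, and 10 of their genes were followed here through sorted mouse mammary cells. They were taken by name and not by a cut on their values, though earlier results of these data were known. The genes are Wif1, the secreted Frizzled-related proteins Sfrp1, Sfrp2, Sfrp4, Sfrp5 and Frzb, the Dickkopf proteins Dkk1, Dkk2 and Dkk3, and the Dickkopf-like gene Dkkl1. All 10 were measured, each by 1 probeset, among 19938 genes on each of 12 arrays. Mice of both genotypes were females of 10 to 14 weeks and carried a Cre recombinase driven by the mouse mammary tumour virus promoter (MMTV) together with the mT/mG reporter, which turns recombined cells green. The Wnt4-deleted mice were MMTV::Cre+.Wnt4fl/fl.mT/mG and the WT mice MMTV::Cre+.Wnt4wt/wt.mT/mG, so the controls also carried Cre and reporter, and Wnt4 was removed only where the Cre acted. Green cells, after other lineages had been depleted, were sorted by the surface protein CD24 into CD24 low cells, named myoepithelial in the labels, and CD24 high cells, named luminal. Each of the 4 groups had 3 arrays, called here by the number in their title: 1, 9 and 13 for WT CD24 low, 3, 11 and 15 for Wnt4-deleted CD24 low, 2, 10 and 14 for WT CD24 high, and 4, 12 and 16 for Wnt4-deleted CD24 high. The labels speak of mammary glands in one place and of mammary grafts in another, and they do not say which mice or how many gave the cells of an array.

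Wnt ligands bind Frizzled receptors and the co-receptors Lrp5 and Lrp6, which stabilises beta-catenin and switches on target genes such as Axin2 and Lgr5. Wif1 and the Frizzled-related proteins bind the ligands outside the cell, the latter through a domain like the ligand-binding part of Frizzled, whereas Dkk1 and Dkk2 bind the co-receptors, with Kremen proteins as partners. Dkk3 is a divergent Dickkopf whose action on Wnt signalling is less settled, and Dkkl1, also called soggy, is a related secreted protein best known from male germ cells. In the mammary gland Wnt4 is made by luminal cells that sense progesterone, and the Wnt response is known best from the basal, myoepithelial layer.

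The promoters of the members whose levels separated the sorted fractions are shown first, as far as the reference holds them. RefSeq sequence of the 250 bases before the transcription start was found for 7 of the 10 genes (mouse build GRCm38.p6), among them Wif1, Sfrp2 and Dkkl1. The Wif1 window is chr10:121033754-121034003 on the plus strand, that of Sfrp2 is chr3:83766071-83766320 on the plus strand, and that of Dkkl1 is chr7:45211884-45212133 on the minus strand. Each runs 5′ to 3′ toward the start of its gene, and capitals mark the letters CAGGTG on either strand, the E-box bound by repressors of the Snai family:
Wif1: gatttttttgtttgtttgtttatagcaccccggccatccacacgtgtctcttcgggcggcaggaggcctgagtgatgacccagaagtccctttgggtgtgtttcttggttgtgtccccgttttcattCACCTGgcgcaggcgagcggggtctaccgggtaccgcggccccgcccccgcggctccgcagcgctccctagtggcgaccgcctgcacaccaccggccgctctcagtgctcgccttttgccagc
Sfrp2: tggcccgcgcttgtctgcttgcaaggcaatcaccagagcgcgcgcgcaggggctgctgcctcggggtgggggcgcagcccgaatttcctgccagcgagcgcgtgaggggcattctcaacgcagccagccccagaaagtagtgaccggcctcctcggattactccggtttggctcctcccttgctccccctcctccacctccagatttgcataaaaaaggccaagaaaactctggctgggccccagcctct
Dkkl1: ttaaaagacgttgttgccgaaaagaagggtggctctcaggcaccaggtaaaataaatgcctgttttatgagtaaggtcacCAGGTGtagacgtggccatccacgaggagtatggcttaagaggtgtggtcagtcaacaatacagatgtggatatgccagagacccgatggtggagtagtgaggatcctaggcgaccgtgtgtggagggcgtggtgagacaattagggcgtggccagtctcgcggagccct
In Wif1 the match lay 123 bases before the start on the minus strand, and in Dkkl1, which ran the opposite way between the fractions, 170 bases before the start on the plus strand. The Sfrp2 window had no match. CAGGTG stood in 3 of the 7 member windows (Wif1, Sfrp5 and Dkkl1) and in 17.2% of 32851 promoter windows of the same length. The TCF/LEF letters CTTTGAT or CTTTGAA, through which beta-catenin acts, were in 1 of 7 (Dkk1, 117 bases before the start) and in 7.48% of all windows, and the ETS letters CAGGAAG in 0 of 7 and in 10.8%. No matches of different motifs overlapped in the member windows, and a match is only a run of letters. GC content was 62.8% for Wif1, 63.6% for Sfrp2 and 52.4% for Dkkl1.

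The sorted fractions carried the markers of their names, and the CD24 low arrays also carried those of other cells. Values are log2 levels after robust multi-array averaging (RMA), on which 1 unit is a 2-fold difference. Levels of different genes cannot be set against each other because each probeset has its own brightness. Percentiles among the genes, given below, thus describe how bright a probeset was and not how much RNA a gene had. The mean of 18 myoepithelial markers was 10.3 to 10.9 in CD24 low and 6.49 to 7.03 in CD24 high arrays, and that of 14 luminal markers 8.01 to 8.75 and 10.68 to 10.97. The mean of 13 fibroblast markers was 8.66 in array 9 and 8.15 in array 11, against 6.11 to 6.84 in the other CD24 low arrays and 5.34 to 5.76 in CD24 high arrays. The mean of 10 endothelial markers was 6.55 to 9.27 in CD24 low and 5.18 to 6.45 in CD24 high arrays, and that of 11 skeletal muscle markers was 7.22 in array 1 and 8.20 in array 3 against 5.08 to 5.65 elsewhere. Wnt4, the deleted gene, stood at 7.42, 7.92 and 7.62 in WT CD24 high arrays and at 6.11, 6.46 and 6.78 in Wnt4-deleted ones, without overlap (log2 change -1.20, SE 0.19, limma adjusted p = 0.416). In CD24 low cells, where WT arrays read 6.45 to 6.63, Wnt4 differed by -0.14 (SE 0.19).

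The first question was which sorted fraction held each inhibitor. In WT mice Wif1, Sfrp1, Sfrp2 and Dkk3 were 3.89- to 12-fold lower in CD24 high than in CD24 low cells, and Dkkl1 was 13.1-fold higher. The same 5 genes passed the test, in the same directions, in Wnt4-deleted mice. In each genotype 4 of 10 members were thus called lower at an adjusted p of 0.05 and 1 of 10 higher, where 8.21% of all genes were called lower and 7.93% higher in WT mice and 8.22% and 8.23% in Wnt4-deleted mice. Groups did not overlap for 7 of 10 members in WT mice, 6 of them lower in CD24 high cells, against 32.8% of all genes, and for 7 of 10 in Wnt4-deleted mice, 5 of them lower, against 29.3%. The median log2 change of the 10 members was -0.96 in WT and -0.77 in Wnt4-deleted mice, where that of all genes was 0.02 and 0.01. In bulk RNA a lower value can come from fewer cells of a type or from less RNA per cell, and these cannot be told apart.

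**Figure D1:**
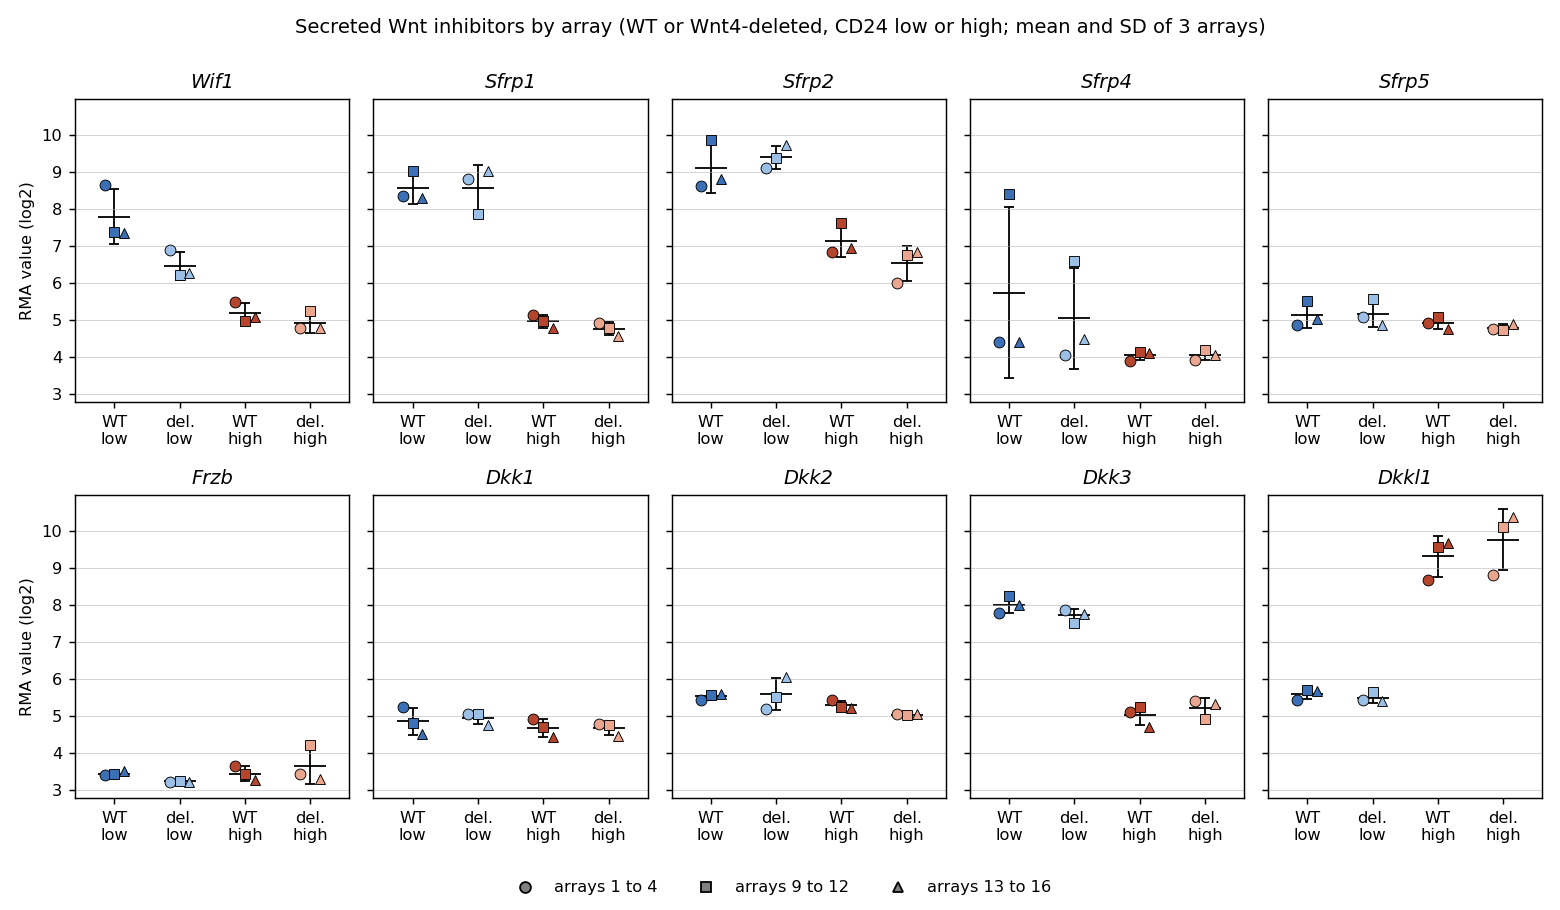
RMA values (log2) of the 10 inhibitor genes in each of 12 arrays, by genotype (WT or Wnt4-deleted, del.) and CD24 fraction. Points are arrays, their shape gives the run of title numbers, and bars are the mean and SD of 3 arrays. Wif1, Sfrp1, Sfrp2 and Dkk3 sit higher in CD24 low arrays, Dkkl1 sits higher in CD24 high arrays, and Sfrp4 is high in arrays 9 and 11.

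Wif1, which captures Wnt ligands through its WIF domain, read 8.64, 7.38 and 7.35 in WT CD24 low arrays and 5.48, 4.97 and 5.09 in WT CD24 high arrays. Every CD24 low array lay above every CD24 high array, and array 1 was the highest. In CD24 high cells Wif1 fell by 2.61 (SE 0.33, 6.09-fold, limma adjusted p = 0.000265). In Wnt4-deleted mice it read 6.90, 6.22 and 6.26 in CD24 low and 4.76, 5.24 and 4.77 in CD24 high arrays, again apart. There it fell by 1.53 (SE 0.33, 2.89-fold, adjusted p = 0.008). Wif1 was the member with 3 separate steps: the WT CD24 low mean of 7.79 ± 0.74 (SD, n = 3) lay above the Wnt4-deleted CD24 low mean of 6.46 ± 0.38, which lay above both CD24 high means of 5.18 ± 0.27 and 4.93 ± 0.27, and only the last neighbours overlapped. Among the genes of its own group the mean stood at percentile 77.6, 56.4, 36.3 and 32.6 in that order, so the CD24 high levels were dim.

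Sfrp1 had the largest fall toward CD24 high cells of the 10 genes in both genotypes. It read 8.34, 9.03 and 8.29 in WT CD24 low arrays and 5.13, 4.98 and 4.78 in WT CD24 high arrays, and fell by 3.59 (SE 0.29, 12-fold, limma adjusted p = 9.02e-06). In Wnt4-deleted mice it read 8.80, 7.86 and 9.02 in CD24 low arrays against 4.92, 4.78 and 4.57, and fell by 3.80 (SE 0.29, 14.0-fold, adjusted p = 6.26e-06). The fractions never overlapped, and the CD24 low means of both genotypes, 8.55 ± 0.41 and 8.56 ± 0.62 (SD, n = 3), did not differ beyond their spread.

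Sfrp2 also fell toward CD24 high cells, but its probeset there stayed brighter than those of most genes. It read 8.61, 9.87 and 8.80 in WT CD24 low and 6.83, 7.63 and 6.95 in WT CD24 high arrays, a fall of 1.96 (SE 0.35, 3.89-fold, limma adjusted p = 0.00284). In Wnt4-deleted mice the values were 9.10, 9.37 and 9.72 against 5.98, 6.75 and 6.85, and Sfrp2 fell by 2.87 (SE 0.35, 7.31-fold, adjusted p = 0.00021). The WT CD24 high mean of 7.14 stood at percentile 67.1 of the genes, the Wnt4-deleted one of 6.53 at percentile 57.9, and the WT CD24 low mean of 9.10 at percentile 92.0. With the fibroblast marker mean as a covariate the fall was 1.45 in WT (adjusted p = 0.0193) and 2.27 in Wnt4-deleted mice (adjusted p = 0.00238), and Sfrp1 fell by 3.57 and 3.78. Endothelial markers were also lower in CD24 high cells (10 of 10 in each genotype), and their part in these falls was not tested.

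Sfrp4 and Sfrp5 showed no called difference between the fractions, and their high values lay in 2 arrays. Sfrp4 read 8.41 in array 9 and 6.59 in array 11, both CD24 low, and 3.89 to 4.47 in the other 10 arrays. These arrays, 1 of each genotype and both of the run of title numbers 9 to 12, were also the ones with the most fibroblast marker signal. They had the highest pericyte marker means too (6.88 and 7.30, against 5.84 to 6.14 in the other CD24 low arrays), and their immune marker means were 6.40 and 6.10, where the other CD24 low arrays ran from 4.88 to 6.22. In CD24 high cells Sfrp4 was dim, with means at percentile 18.33 of the genes in WT and 19.25 in Wnt4-deleted mice. The log2 difference, CD24 high minus CD24 low, was -1.69 in WT (SE 0.94, 95% interval -3.76 to 0.37, limma adjusted p = 0.299) and -0.99 in Wnt4-deleted mice (SE 0.94, adjusted p = 0.573). Without array 9 the WT difference was -0.35, and without array 11 that of Wnt4-deleted mice was -0.21. With the fibroblast marker mean as a covariate the signs turned, to 0.41 (adjusted p = 0.282) and 1.45 (adjusted p = 0.00169). No run of title numbers showed a rise in Wnt4-deleted mice (-0.14, -2.41 and -0.42). The fibroblast marker mean was itself lower in every CD24 high array than in every CD24 low array. This fit therefore cannot tell marker and fraction well apart.

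Sfrp5 was dim in all 4 groups, with means at percentiles 30.4 to 35.0 of the genes, and its highest values were again in array 11 (5.55) and array 9 (5.50), where the other 10 arrays read 4.71 to 5.07. It differed between fractions by -0.21 (SE 0.20, limma adjusted p = 0.601) in WT and by -0.38 (SE 0.20, adjusted p = 0.255) in Wnt4-deleted mice. All 13 fibroblast markers had lower means in CD24 high than in CD24 low cells in both genotypes. Of these, 2 passed the test in WT and 3 in Wnt4-deleted mice, beside 8.21% and 8.22% of all genes called lower. The part of the fibroblast markers in the Sfrp4 and Sfrp5 values was not tested beyond the fit with the covariate. That of the pericyte and immune markers was not tested either.

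**Figure D2:**
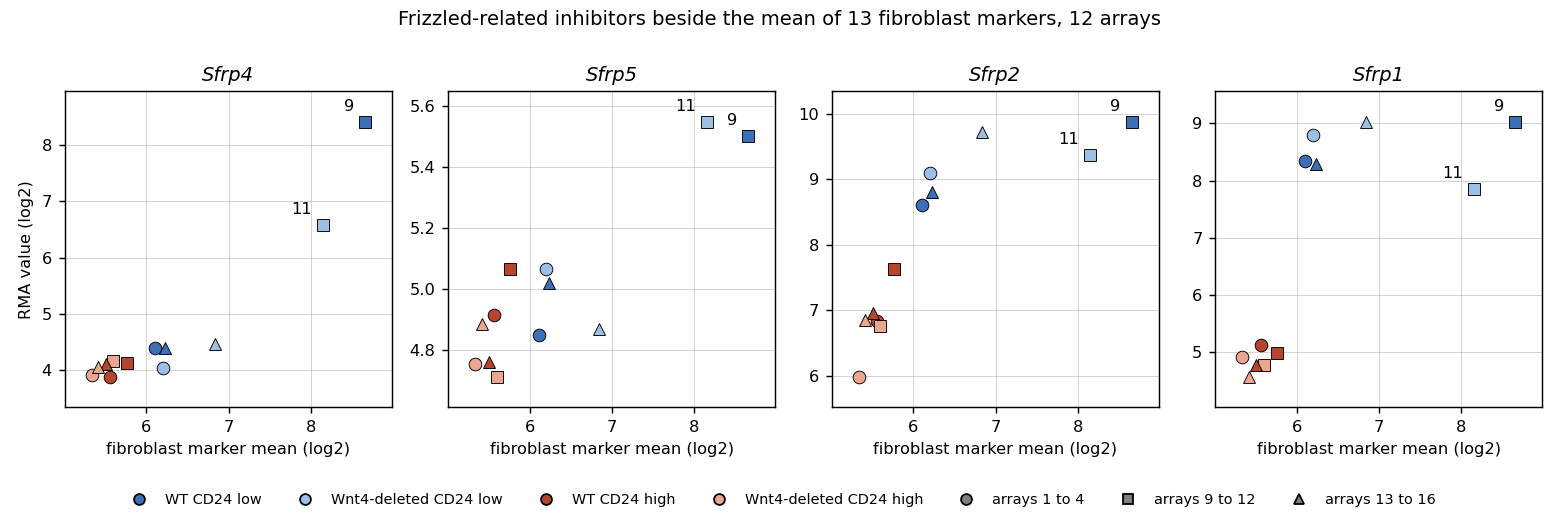
RMA values (log2) of Sfrp4, Sfrp5, Sfrp2 and Sfrp1 in 12 arrays against the mean log2 value of 13 fibroblast markers. Each point is an array, coloured by group and shaped by run of title numbers. Arrays 9 and 11, with marker means of 8.66 and 8.15, hold the highest Sfrp4 and Sfrp5 values, while Sfrp1 and Sfrp2 are high in all 6 CD24 low arrays.

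Frzb, the remaining Frizzled-related gene, was close to the floor of the arrays. Its group means stood at percentiles 7.85 to 13.76 of the genes and its values ran from 3.21 to 3.64, apart from 4.20 in array 12. WT fractions both averaged 3.43 (95% interval of the difference -0.45 to 0.45). In Wnt4-deleted mice CD24 low arrays read 3.22, 3.24 and 3.21 and CD24 high arrays 3.41, 4.20 and 3.30, which did not overlap but missed the test (log2 change 0.41, SE 0.20, limma adjusted p = 0.218). Without array 12 the difference was 0.13.

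The co-receptor antagonists Dkk1 and Dkk2 were dim and nearly level. Dkk1 ran from 4.42 to 5.24 over the 12 arrays, with all groups overlapping, and differed between fractions by -0.18 (SE 0.20) in WT and -0.29 (SE 0.20) in Wnt4-deleted mice. Dkk2 read 5.42, 5.55 and 5.59 in WT CD24 low and 5.41, 5.24 and 5.21 in WT CD24 high arrays, apart by a narrow margin (log2 change -0.23, SE 0.18, limma adjusted p = 0.495). In Wnt4-deleted mice it read 5.18, 5.51 and 6.04 in CD24 low and 5.03, 5.01 and 5.04 in CD24 high arrays. That difference, -0.55 (SE 0.18, 95% interval -0.95 to -0.15), missed the adjusted threshold (adjusted p = 0.0636) and passed it when array 3 was left out (-0.75, adjusted p = 0.00802) or arrays 1 to 4 (-0.75, adjusted p = 0.0275). It shrank to -0.32 without array 15, the highest of its group.

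Dkk3 had the smallest adjusted p of the 10 genes in each genotype. It read 7.77, 8.23 and 7.98 in WT CD24 low arrays and 5.09, 5.24 and 4.70 in WT CD24 high arrays, and fell by 2.98 (SE 0.19, 7.91-fold, limma adjusted p = 1.76e-06). Wnt4-deleted CD24 low arrays read 7.87, 7.52 and 7.74 and CD24 high arrays 5.40, 4.92 and 5.31, a fall of 2.50 (SE 0.19, 5.64-fold, adjusted p = 6.11e-06). The fractions were far apart, the arrays within a fraction close together, and Dkk3 changed little with the fibroblast marker mean as a covariate (falls of 2.93 and 2.43).

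Dkkl1 was the member that ran the other way. It read 5.42, 5.69 and 5.68 in WT CD24 low arrays and 8.66, 9.57 and 9.68 in WT CD24 high arrays, and rose by 3.71 (SE 0.37, 13.1-fold, limma adjusted p = 4.48e-05). In Wnt4-deleted mice it read 5.41, 5.63 and 5.41 against 8.82, 10.10 and 10.37, and rose by 4.28 (SE 0.37, 19.4-fold, adjusted p = 1.52e-05). In CD24 high cells its mean stood at percentile 93.6 (WT) and 95.8 (Wnt4-deleted) of the genes, and in CD24 low cells at 42.4 and 40.5. Arrays 2 and 4, both of the first run of title numbers, were the lowest of their groups.

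**Figure D3:**
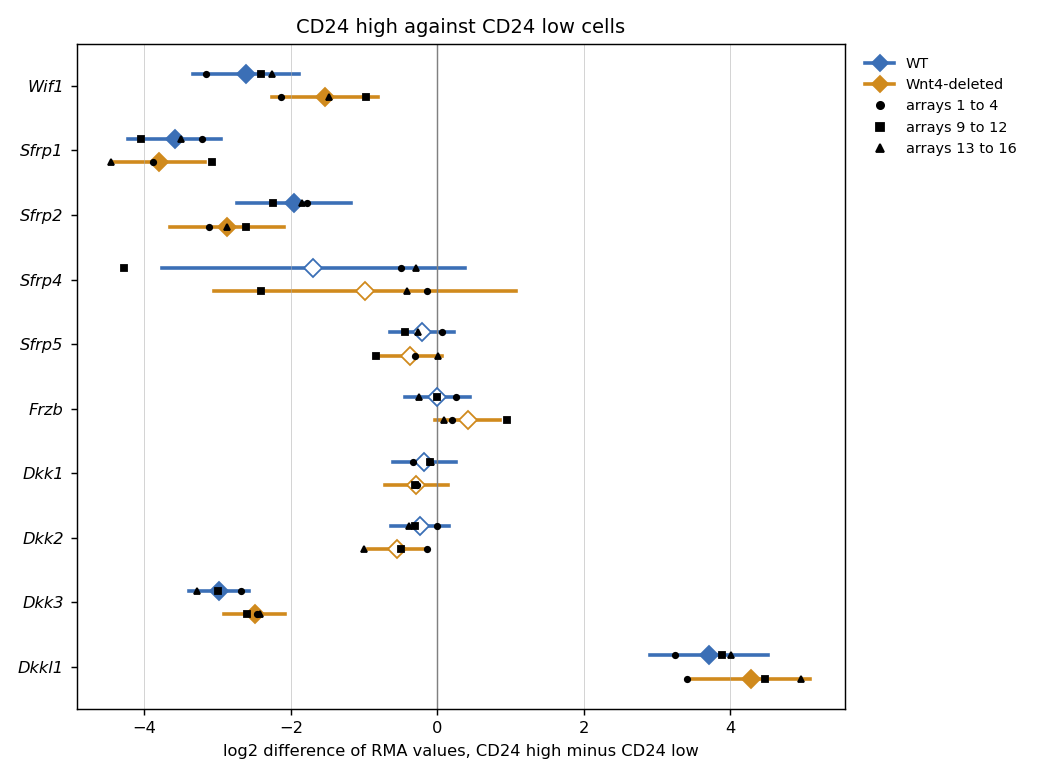
Difference of log2 RMA values, CD24 high minus CD24 low, for each gene in WT (blue) and Wnt4-deleted (orange) mice. Diamonds are the fitted differences of 3 against 3 arrays, filled where the adjusted p was under 0.05, lines their 95% intervals, and black symbols the difference within each run of title numbers. Dkkl1 lies at 3.71 and 4.28 and Sfrp1 at -3.59 and -3.80, while the interval of Sfrp4 spans 0 in both genotypes.

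The second question was whether loss of Wnt4 changed the inhibitors. In CD24 low cells no member was called (0 of 10, background 0.00502% of genes, which is 1 gene), and 1 of 10, Wif1, had an unadjusted p under 0.05, against 3.06% of all genes. Wif1 was lower in each Wnt4-deleted array (6.90, 6.22 and 6.26) than in each WT array (8.64, 7.38 and 7.35). The difference of -1.33 (SE 0.33, 2.52-fold, 95% interval -2.06 to -0.61 before any adjustment) ranked at place 17 of 19938 genes by p, and limma's adjusted p was 1. Within the 3 runs of title numbers it was -1.74, -1.16 and -1.09. It was -0.91 without array 1, -1.13 without arrays 1 to 4 and -1.32 with the fibroblast marker mean as a covariate. Skeletal muscle and endothelial markers were both higher in Wnt4-deleted than in WT CD24 low cells by sign (11 of 11 and 10 of 10, none called), but unevenly over arrays. The muscle means were 8.20, 5.65 and 5.28 in arrays 3, 11 and 15, against 7.22, 5.40 and 5.37 in WT arrays 1, 9 and 13. The endothelial means were 6.55, 9.27 and 8.94 against 6.65, 8.14 and 8.88. The part of these markers in the Wif1 difference was not tested. The myoepithelial marker mean was 10.6 to 10.9 in WT and 10.3 to 10.9 in Wnt4-deleted CD24 low arrays.

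For the other 9 members the CD24 low difference lay between -0.70 (Sfrp4, SE 0.94) and 0.30 (Sfrp2, SE 0.35), all with a limma adjusted p of 1. Groups did not overlap for 2 of 10, Wif1 and Frzb, both lower in Wnt4-deleted cells, against 6.77% of all genes. Frzb differed by -0.21 (SE 0.20) at the floor of the scale. The 95% intervals show what these arrays could miss. Sfrp1, at 0.01, could lie between -0.62 and 0.64, and Dkk3, at -0.29, between -0.70 and 0.12. The median over the 10 members was -0.05, beside -0.02 over all genes.

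In CD24 high cells again 0 of 10 members were called (background 0.00502%), none had an unadjusted p under 0.05 (1.99% of all genes did), and Dkk2 alone did not overlap between genotypes (7% of all genes). Dkk2 read 5.41, 5.24 and 5.21 in WT and 5.03, 5.01 and 5.04 in Wnt4-deleted arrays, a difference of -0.26 (SE 0.18, limma adjusted p = 1). Sfrp2 differed by -0.61 (SE 0.35, 95% interval -1.39 to 0.16) and was lower in the Wnt4-deleted array of each run of title numbers (-0.85, -0.88 and -0.11). Sfrp1 and Dkk2 were also lower in each run, and Dkkl1 was higher in each. For Sfrp2 the groups overlapped, and the difference was -0.34 without array 4. Dkkl1 differed by 0.46 (SE 0.37, 95% interval -0.35 to 1.26), or by 0.13 without array 2 and 0.93 without array 4, and the other 7 members by -0.26 (Wif1) to 0.20 (Frzb and Dkk3). The median over the members was -0.07, and over all genes -0.03.

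**Figure D4:**
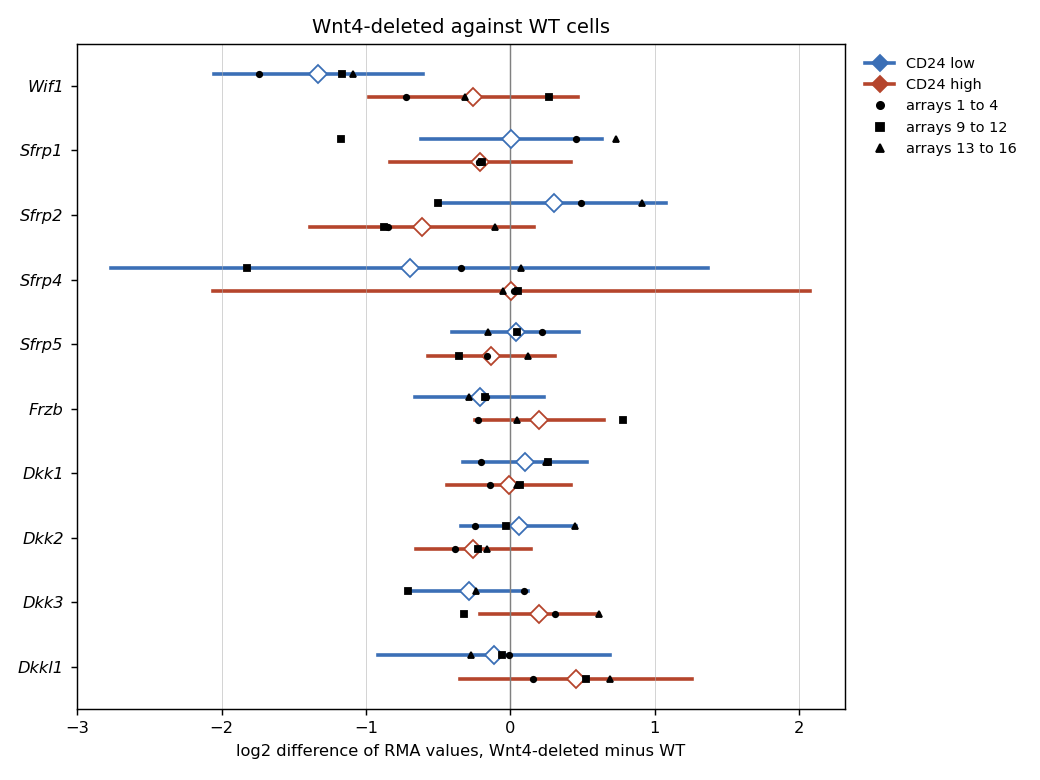
Difference of log2 RMA values, Wnt4-deleted minus WT, for each gene in CD24 low (blue) and CD24 high (red) cells. Diamonds are the fitted differences of 3 against 3 arrays, all open because none had an adjusted p under 0.05, lines their 95% intervals, and black symbols the difference within each run of title numbers. Wif1 in CD24 low cells, at -1.33, is the one difference whose interval leaves out 0.

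The third question was whether the Wnt4 effect differed between the fractions. The test of that difference called 0 of 10 members and 0% of all genes. Wif1 was the member with the largest difference (CD24 low effect minus CD24 high effect -1.08, SE 0.47, 95% interval -2.10 to -0.05, limma adjusted p = 1, place 198 of 19938). It was -1.02, -1.43 and -0.78 within the runs of title numbers and -0.65 without array 1. In CD24 high cells Wif1 was dim, with group means at percentile 36.3 in WT and 32.6 in Wnt4-deleted mice. A fall there could be hard to see, which limits this difference. Sfrp2 had the opposite sign (0.91, SE 0.50, interval -0.19 to 2.01), and the other members lay between -0.70 (Sfrp4) and 0.31 (Dkk2). Both fraction comparisons and both genotype comparisons share arrays, so their values for a gene are not independent of each other.

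The wider Wnt pathway was read from lists of its components. Of 15 other secreted or membrane-bound inhibitors, 7 were called lower and 0 higher in WT CD24 high cells, and 6 and 0 in Wnt4-deleted mice. By sign alone 10 were lower and 5 higher in WT, and 11 and 4 in Wnt4-deleted mice (median log2 change -0.20 and -0.17). Over all genes 8.21% were called lower and 7.93% higher in WT mice, and 8.22% and 8.23% in Wnt4-deleted mice. Apcdd1, which binds Wnt and Lrp proteins at the membrane, fell by 1.40 in WT (SE 0.13, limma adjusted p = 2.22e-05) and by 1.42 in Wnt4-deleted mice. Trabd2b (Tiki2), a protease that cuts Wnt ligands, fell by 2.77 (SE 0.31) and 2.16, and the binding protein Igfbp4 fell by 2.31 (SE 0.46) and 2.56. Rnf43, a ligase that removes Frizzled receptors from the membrane, fell by 0.83 (SE 0.18) and 0.64. For Sostdc1, a secreted ligand of Lrp proteins, the changes were -2.50 (SE 0.55) and -2.81. Dkk4, the Dickkopf gene outside the set of 10, differed by 0.22 (SE 0.17) and 0.03 (SE 0.17), neither called.

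Receptors were read in the same way. The share of all genes called lower in CD24 high cells was 8.21% in WT and 8.22% in Wnt4-deleted mice. Of 13 Frizzled and related receptors, 7 were called lower and 0 higher in CD24 high cells of each genotype. By sign 11 were lower and 2 higher in WT, and 10 and 3 in Wnt4-deleted mice (median -1.18 in WT and -0.72 in Wnt4-deleted mice). Fzd2 changed by -1.85 in WT (SE 0.19) and -1.09 in Wnt4-deleted mice, and Fzd7 by -2.84 (SE 0.33) and -2.39. Fzd3 changed by -1.83 (SE 0.24) and -1.66, and the Wnt5a receptor gene Ror1 by -1.58 (SE 0.22) and -1.01. Of the 5 co-receptors and Dickkopf receptors, 3 were called lower in WT: Lrp4 fell by 1.23 (SE 0.21), Kremen1 by 1.46 (SE 0.33) and Lrp6 by 0.73 (SE 0.19). In Wnt4-deleted mice Lrp4 alone was called (-1.07), and Kremen1 read -0.77 (adjusted p = 0.145) and Lrp6 -0.46 (adjusted p = 0.128).

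The called ligands were divided, and the called targets were all lower in CD24 high cells. Of 19 Wnt ligands, Wnt4 (1.13, SE 0.19) and Wnt7b (1.37, SE 0.19) were called higher in WT CD24 high cells, and Wnt9a (-0.44), Wnt10a (-1.96) and Wnt11 (-1.96) lower, and in Wnt4-deleted mice Wnt7b (1.16) was called higher and Wnt10a (-1.55) and Wnt11 (-1.41) lower. Of 18 measured targets, 8 were called lower and 0 higher in WT CD24 high cells and 7 and 0 in Wnt4-deleted mice. By sign 13 were lower and 5 higher in each genotype. Over all genes 8.21% were called lower and 7.93% higher in WT mice, and 8.22% and 8.23% in Wnt4-deleted mice. The targets share Dkk4, Notum, Rnf43, Znrf3 and Apcdd1 with the list of other inhibitors. The WT calls of Rnf43, Znrf3 and Apcdd1 are thus counted in both lists. Lgr5, a receptor of R-spondins and a Wnt target, fell by 4.97 (SE 0.23, limma adjusted p = 2.74e-07) and 4.93, and Axin2, a feedback inhibitor, changed by -1.32 (SE 0.21) and -0.81. Nkd1, another feedback inhibitor, changed by -2.39 (SE 0.32) and -2.02, and Myc, a growth regulator, by -0.72 (SE 0.13) and -0.74. Between genotypes no gene of these lists was called in either fraction. Axin2 in CD24 low cells read 7.12, 7.46 and 7.96 in WT and 6.73, 6.85 and 6.37 in Wnt4-deleted arrays, without overlap (-0.87, SE 0.21, adjusted p = 1), and Lgr5 differed by -0.44 (SE 0.23). Over all genes 6.77% did not overlap in that comparison. Of the 18 targets 1 was lower and 1 higher without overlap. Of the 13 Frizzled and related receptors 2 were lower, of the 19 ligands 1 was lower, and of the 15 other inhibitors 1 was higher.

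The genes whose 12 array values ran most like each member's are given as a description. The arrays fall into 2 fractions, so for the members that separate them a high Pearson r says mostly that. Sfrp1 ran closest to Slit2, Medag and Hgf (r = 0.994, 0.991 and 0.991), and Dkk3 to Gfra2, Krt5 and Irx4, all at 0.991, of which Krt5 is the basal keratin that marks myoepithelial cells. Wif1 ran with Scarf2, Tspan18 and Pappa (0.967, 0.964 and 0.962), and Sfrp2 with Pde4b, Mybph and Lama3 (0.969, 0.967 and 0.966). Dkkl1 ran with Tmprss2, Capn5 and the chloride transporter gene Slc12a2 (0.995, 0.993 and 0.991).

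For the members with no called difference between the fractions, Sfrp4 ran with the matrix genes Thbs2 and Svep1 and with Abca8a (r = 0.993, 0.992 and 0.987), and Sfrp5 with Dock10, Hhip and Pi16 (0.931, 0.928 and 0.928), the last of which is on the fibroblast list. For both, arrays 9 and 11 hold the highest values. Dkk2 ran with Teddm1b, Hps3 and Gab3 (0.959, 0.951 and 0.941). Frzb with Defb20, Car6 and Shisal1 (0.91, 0.882 and 0.879) and Dkk1 with Foxo3, Tlcd5 and Enox1 (0.872, 0.861 and 0.852) had the lowest values.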

How the data were processed

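RNA of FACS-sorted mouse mammary cells was isolated with Trizol, amplified with an Ovation Pico kit, biotinylated with an FL-Ovation module and hybridised to 12 Affymetrix arrays. Per the submitters' processing notes, the authors used RMA in Expression Console 1.1.2800 (Affymetrix). The deposited values are therefore on a log2 scale, background-corrected, quantile-normalised and condensed by median polish over a probeset's probes. Their range was 1.62 to 13.8. Quantile normalisation gives all arrays like distributions (medians 5.64 to 5.82), so a change shared by most genes would not show. Arrays carry no depth, and their number limits the precision. Correlations within groups were 0.963 to 0.991. The array test of the study is not given in the sources used here.

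Of 35556 probesets, 21789 had 1 gene symbol in the platform table, 1621 several and 12146 no entry. The probeset with the highest mean was used for each of 19938 genes (999 had several). Groups came from sample titles. All groups were fitted together (R 4.3.3, limma 3.58.1, lmFit then eBayes) with 1 mean per group, leaving 8 residual degrees of freedom (11.05 with moderation). Tests were two-sided, with Benjamini-Hochberg adjustment over all genes within each of 5 comparisons and a threshold of 0.05. The script was tested on simulated data. Per the design text there were 3 independent experiments, and no label ties an array to one or to an animal. The p-values weigh a difference of group means against the spread of arrays within groups, whatever the source of that spread. The spread was pooled over the 4 groups and moderated across genes.

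The text names all 10 members, of each pathway list at most 4 called genes per direction by smallest adjusted p (with Wnt4, Lgr5 and Axin2), and for each member the 3 genes of highest Pearson r. Dkk4, and the values of listed genes in a comparison that did not call them, were added after they were seen. Members, gene lists and tests were chosen with earlier results of these data known. Alternatives were a filter under the 40th percentile, the mean of probesets, quantile normalisation applied again, centring on medians, a robust prior with an intensity trend, a fit on the compared groups, the run of title numbers as a block, the fibroblast marker mean as a covariate, and leaving out each array. Leaving out arrays 9 and 11, or arrays 1 to 4, was added after seeing the data.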

Additional observations from a re-analysis of the deposited data

How the results depend on the processing

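The number of called members was 5 in WT fractions under all 22 alternatives, 5 or 6 in Wnt4-deleted fractions, and 0 in both genotype comparisons and in the difference of effects. The additional calls were Dkk2 without array 3 or without arrays 1 to 4, and Sfrp4 with the fibroblast covariate. With the run of title numbers as a replicate block the counts were 5, 5, 0, 0 and 0. The 3 runs each hold 1 array of every group and 3 independent experiments are named in the design text, yet no label says that a run is one of them. Of 1065 member values under alternatives, 1026 kept their sign and side of the threshold, 2 passed it newly with the same sign, 0 lost it and 37 changed sign, 0 of these among called values. The Sfrp4 value with the fibroblast covariate, 1 of the 37, both changed sign and passed. The mean of probesets cannot move members with 1 probeset, and the percentile filter left Sfrp4, Sfrp5, Frzb, Dkk1 and Dkk2 untested.

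The sign changes were small values except for Sfrp4, and the cause was not tested. Between WT fractions, the fibroblast covariate gave 0.41 for Sfrp4, 0.14 for Sfrp5 and 0.0282 for Frzb, and median centring gave 0.058 for Frzb. In Wnt4-deleted fractions the covariate gave 1.45 for Sfrp4 and 0.0252 for Sfrp5. Without arrays 1 to 4, Wnt4-deleted minus WT was -0.22 for Sfrp1 and -0.0526 for Sfrp5 in CD24 low cells, -5.3e-05 for Sfrp4 and 0.0557 for Dkk1 in CD24 high cells, and the difference of effects was -0.0137 for Sfrp1. Dkk1 in CD24 high cells was 0.017 under median centring and 0.0516 under the second quantile normalisation. Leaving out 1 array at a time, the WT fraction difference ran from -0.102 to 0.0914 for Frzb and from -0.348 to 0.0201 for Dkk1. The CD24 low genotype difference ran from -0.22 to 0.36 for Sfrp1, -1.47 to 0.64 for Sfrp4, -0.16 to 0.23 for Sfrp5, -0.0689 to 0.299 for Dkk1 and -0.17 to 0.26 for Dkk2. The CD24 high genotype difference ran from -0.0674 to 0.0752 for Sfrp4, -0.0781 to 0.372 for Frzb and -0.14 to 0.11 for Dkk1. The difference of effects ran from -0.017 to 0.567 for Sfrp1, -1.48 to 0.63 for Sfrp4, -0.025 to 0.358 for Sfrp5 and -0.0588 to 0.309 for Dkk1. A low signal limits Frzb, Dkk1, Dkk2 and Sfrp5, whose group means lay at or under percentile 42.1 of the genes. In CD24 high cells it also limits Wif1, Sfrp1 and Dkk3, whose means there lay at percentiles 29.9 to 37.7. It limits Sfrp4 there too, with means at percentile 18.33 in WT and 19.25 in Wnt4-deleted mice.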
